A study of Mus musculus with 4 samples.

Results

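Mitochondrial ribosomal proteins build the mitoribosome, the ribosome inside mitochondria. It translates the few messenger RNAs of the mitochondrial genome, which encode core subunits of the respiratory chain and of the ATP synthase. Its proteins are encoded in the nucleus, made in the cytosol and imported, and they assemble with ribosomal RNAs from the mitochondrial genome into a large and a small subunit. Many of them have a counterpart in bacterial ribosomes, and others are found in mitochondria only. T cells are known to enlarge their mitochondrial capacity when they are activated and grow.

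The genes were taken as all probe sets with a single platform gene symbol that starts with Mrpl or Mrps and a digit. This gave 156 of 45037 probe sets, for 76 of 18193 named genes: 104 probe sets of 47 large-subunit (Mrpl) genes and 52 probe sets of 29 small-subunit (Mrps) genes. The measurements come from 4 Affymetrix mouse expression arrays. Of these, 2 held CD4+CD8+ double-positive (DP) cells of peripheral tumours (thymoma) over-expressing Notch1-IC, the active intracellular part of the Notch1 receptor, with the genotype label T-ALL (T-cell acute lymphoblastic leukaemia). The other 2 held DP cells of normal thymus with the genotype label WT, and all 4 share the background label WT C57/BLACK6, though a sample type label names tumour for the normal samples too. The animals' ages, the way Notch1-IC was introduced and whether animals were pooled go unstated in the labels. Nothing there says that the 2 samples of a group came from separate animals, so the p-values rest on a spread that may be technical. Tumour site and transformation cannot be told apart, because the tumours were peripheral and the normal cells thymic.

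Each array was checked against markers of its labelled cell type and of other cells. All 7 measured DP markers (Cd4, Cd8a, Cd8b1, Cd3e, Rag1, Rag2 and Dntt) lay above background on all 4 arrays, but their summed intensity was 15164 to 15210 in the tumour arrays, against 46502 to 47965 in the normal arrays. The 14 macrophage markers summed to 2314 to 2445 intensity units in the tumour arrays, against 143 to 189 in the normal arrays, with 12 and 3 of them above background on both arrays of the group. For 11 neutrophil markers the sums were 2200 to 2239 in the tumour arrays and 204 to 267 in the normal arrays, with 10 and 3 above background. Beta-actin control probe sets, which show RNA integrity, had a 3'/5' signal ratio of 2.46 to 2.53 in the tumour arrays, against 1.20 to 1.28 in the normal arrays. For Gapdh it was 1.84 to 1.85 in the tumour arrays and 0.897 to 0.912 in the normal arrays. The part that other cells or RNA quality had in the differences below was not tested, and fewer cells of a type and less RNA per cell cannot be told apart in such samples.

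Promoter sequences from RefSeq (GRCm38.p6) are shown first, since genes of this family are thought to share nuclear regulators. Each window runs from 250 bases before to 50 after an annotated gene start, and windows were found for 67 of the 76 genes. The motifs searched, on both strands, were CACGTG (the E-box bound by Myc and Max), the palindromic NRF1 consensus, CCGGAAG (bound by ETS factors such as GABP) and AAGATGGC (bound by YY1). The windows below belong to Mrpl12, which had the largest difference between groups outside the probe sets marked as able to bind several genes, and, for each motif, to the gene with a called difference that had the largest one. Capitals mark the motifs.
Mrpl12, chr11:120484387-120484686, plus strand: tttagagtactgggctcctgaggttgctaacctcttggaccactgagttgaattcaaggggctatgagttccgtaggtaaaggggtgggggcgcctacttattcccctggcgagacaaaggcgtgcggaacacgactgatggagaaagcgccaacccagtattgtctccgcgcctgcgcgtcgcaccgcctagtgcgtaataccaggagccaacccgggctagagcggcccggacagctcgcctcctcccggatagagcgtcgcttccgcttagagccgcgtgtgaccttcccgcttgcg
Mrpl2, chr17:46645971-46646270, plus strand: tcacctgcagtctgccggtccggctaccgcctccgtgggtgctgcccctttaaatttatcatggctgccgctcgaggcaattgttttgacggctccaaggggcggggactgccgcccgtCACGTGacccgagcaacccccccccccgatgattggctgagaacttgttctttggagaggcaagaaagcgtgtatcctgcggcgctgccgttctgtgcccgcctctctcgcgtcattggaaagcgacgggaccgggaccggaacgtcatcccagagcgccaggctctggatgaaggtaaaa
Mrpl9, chr3:94443086-94443385, plus strand: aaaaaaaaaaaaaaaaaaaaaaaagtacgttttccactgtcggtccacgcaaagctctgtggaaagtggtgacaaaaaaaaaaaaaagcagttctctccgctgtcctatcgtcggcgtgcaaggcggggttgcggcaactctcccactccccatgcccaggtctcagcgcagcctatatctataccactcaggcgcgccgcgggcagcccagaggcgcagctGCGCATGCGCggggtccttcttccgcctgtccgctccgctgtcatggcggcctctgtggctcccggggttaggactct
Mrpl52, chr14:54426659-54426958, plus strand: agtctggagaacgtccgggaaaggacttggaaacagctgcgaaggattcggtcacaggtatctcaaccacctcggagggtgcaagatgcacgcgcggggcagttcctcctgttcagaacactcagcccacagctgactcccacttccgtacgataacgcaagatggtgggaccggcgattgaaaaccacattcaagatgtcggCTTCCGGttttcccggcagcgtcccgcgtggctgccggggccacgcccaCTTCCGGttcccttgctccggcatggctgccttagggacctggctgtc
Mrps11, chr7:78782881-78783180, plus strand: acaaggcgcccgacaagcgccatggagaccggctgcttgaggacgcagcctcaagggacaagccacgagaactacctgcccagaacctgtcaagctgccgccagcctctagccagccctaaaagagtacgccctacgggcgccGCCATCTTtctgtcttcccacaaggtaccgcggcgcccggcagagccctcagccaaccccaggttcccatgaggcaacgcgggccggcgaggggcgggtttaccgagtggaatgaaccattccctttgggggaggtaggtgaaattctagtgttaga

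Mrpl52 held CCGGAAG in reverse at 2 places, Mrpl2 held the E-box, Mrpl9 the NRF1 motif and Mrps11 the YY1 motif, and the Mrpl12 window held none of the 4. Over the family, 37.3% of 67 genes held CCGGAAG, against 24.7% of 6454 named genes with a window whose log2 intensity averaged 6 or more, as it did for all family members, and 9.93% of all 27025 genes with a window. AAGATGGC stood in 17.9% of the family, 6.52% of the genes that averaged 6 or more (called genes of like level) and 3.19% of all. The E-box stood in 7.46% of the family, 12.7% of the genes of like level and 8.09% of all, and the NRF1 consensus in 4.48%, 2.87% and 1.07%. By direction of change, CCGGAAG stood in 5 of 21 genes that were higher in the tumour arrays, 7 of 17 that were lower and 13 of 29 that were not called. The E-box stood in 1 of 21, 0 of 17 and 4 of 29, and the YY1 motif in 3, 4 and 5 of the same genes. The NRF1 motif stood in Mrpl32, which was called lower, and in Mrpl9 and Mrpl39, whose probe sets disagree in direction, so it is not given by direction. Mrpl9 and Mrpl39 are counted among the 21 higher genes by their most intense probe sets, and their windows held none of the other motifs. A match describes the letters in the window and does not show a bound factor.

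The family split. Of the 76 genes, 25 rose in the tumour arrays (32.9%) and 17 fell (22.4%), while 34 did not pass (limma with a variance prior that follows the level, adjusted p below 0.05 over all probe sets). Each gene is given by its most intense probe set. Among all named genes, 16.3% were higher and 11.7% lower by the same rule, and among the 7816 named genes that averaged 6 or more (log2), 30% were higher and 24.4% lower. The family's shares were near those of these 7816 genes, called genes of like level here. They share only the floor of 6 with the family and were not matched to its levels. The comparison therefore does not give the share among genes as intense as the family. The median log2 difference was 0.11 over the family, against 0.09 over all named genes and 0.06 over those of like level.

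In the large subunit 15 of 47 genes rose and 11 fell, with a median log2 difference of 0.11 and a range of -1.07 to 1.78. In the small subunit 10 of 29 rose and 6 fell, with a median of 0.12 and a range of -0.96 to 1.31. The subunits thus gave similar shares, 31.9% and 34.5% higher and 23.4% and 20.7% lower, and a difference between them was not tested. Leaving out any 1 array lowered the number of genes called in both directions, in each subunit and over all named genes. The large-subunit median was 0.006 without normal replicate 2 and 0.02 without tumour replicate 1. All 76 most intense probe sets lay above background on all 4 arrays. The median gap between the replicate arrays of a group was 0.09 (tumour) and 0.11 (normal) on the log2 scale, against a median absolute difference of 0.43 between groups. Both tumour arrays lay above both normal arrays for 39 genes and below them for 26, where 33.7% and 26.4% of all named genes did so. As shares these were 51.3% and 34.2% of the family, against 44.4% and 37.2% of the genes of like level.

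Many calls rest on all 4 arrays. When each array was left out in turn, 24 of the 42 calls (16 higher and 8 lower) passed in every one of the 4 refits, and 6 passed in none of them. Those 6 were the rises of Mrpl19, Mrps25 and Mrps27 and the falls of Mrpl32, Mrpl40 and Mrpl58. Another 3 calls, of Mrpl17, Mrpl46 and Mrps36, passed in a single refit, 6 passed in 2 refits (Mrpl9, Mrpl39, Mrps7, Mrps18b, Mrps26 and Mrps28), and Mrpl43, Mrpl49 and Mrps11 lost the call only without tumour replicate 2.

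**Figure D1:**
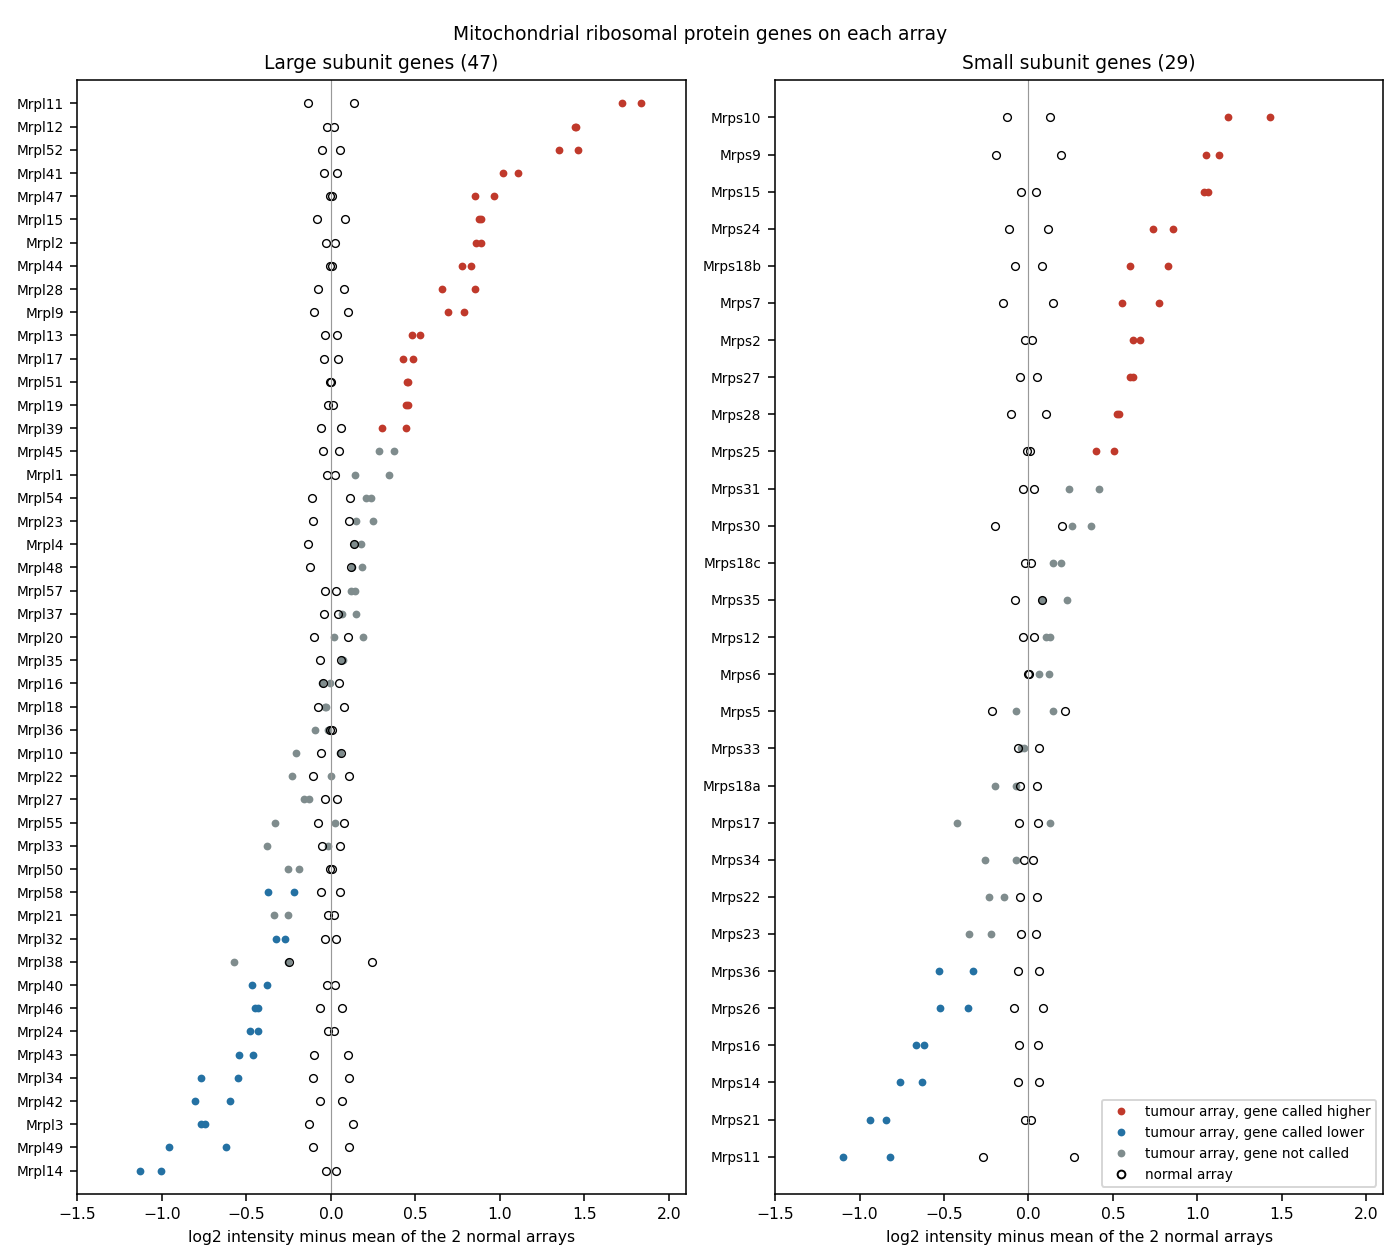
Log2 intensity on each array minus the mean of the 2 normal arrays (x axis), with 1 row per gene, for 47 large-subunit genes (left) and 29 small-subunit genes (right). Filled points are tumour arrays, coloured by the gene's call, and open circles are normal arrays; both panels run from genes near or above 1.3 at the top to genes near -1 at the bottom.

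The calls depend on how limma estimates the variance. With its default prior, which does not follow the level, 0 of 45037 probe sets passed (0% called, with 11337 at an unadjusted p below 0.05), and 25 of the 76 genes had an unadjusted p below 0.05. Fitted over 1 probe set per gene with that prior, a setting added after the data were seen, 3 family members rose (Mrpl11, Mrpl12 and Mrpl52) and 0 fell, against 4.17% and 2.2% of all named genes, and 36 of the 76 had an unadjusted p below 0.05. All 42 called genes had groups that did not overlap, but so did 23 of the 34 not called. With 2 arrays per group a call nearly requires such a gap, so the lack of overlap adds nothing to the calls.

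The calls also depend on scaling. The bacterial hybridization controls BioB, BioC and BioD were 0.60 higher (log2) in the tumour arrays, and when the arrays were scaled to them 9 of the 76 genes were higher (11.8%) and 47 lower (61.8%), with subunit medians of -0.50 (large) and -0.49 (small). Under the same scaling 6.99% of all named genes were higher and 27.9% lower, and 11.3% and 57.3% of genes of like level, and the median of all named genes was -0.51, against 0.09 as deposited. The genes still higher were Mrpl11, Mrpl12, Mrpl15, Mrpl41, Mrpl47, Mrpl52, Mrps9, Mrps10 and Mrps15. Directions below are therefore relative to the bulk of genes on the array.

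**Figure D2:**
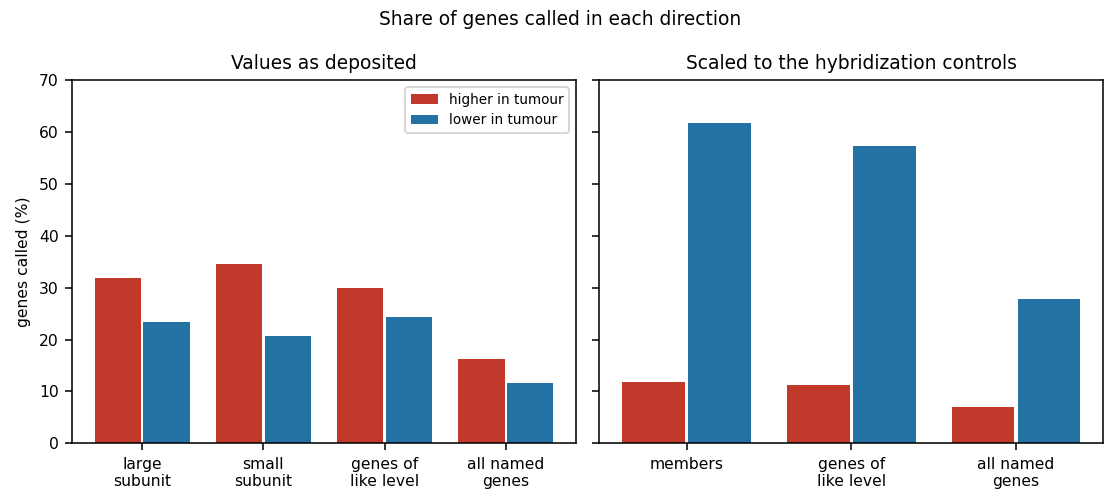
Share of genes called (y axis, percent) higher (red) and lower (blue) in the tumour arrays, with values as deposited (left) and scaled to the hybridization controls (right). Each subunit sits near the genes of like level, and with control scaling the family moves to 61.8% lower, beside 57.3% of genes of like level. Genes of like level are those that averaged 6 or more (log2), with no closer match to the family.

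The stalk of the large subunit, which recruits translation factors, held the strongest rises of the family but did not move as a whole. Mrpl12, the stalk protein that in human cells also binds the mitochondrial RNA polymerase, read 11.14 and 11.14 (log2 intensity) in the tumour arrays, against 9.72 and 9.67 in the normal arrays. The groups were far apart, with a 2.73-fold rise on the only probe set of the gene. The log2 difference was 1.45 ± 0.08 (limma SE, which draws on the variance prior, n = 2 arrays per group, adjusted p = 1.43e-06). Mrpl11, the protein at the base of the stalk, read 10.43 and 10.32 in the tumour arrays and 8.73 and 8.46 in the normal arrays, a difference of 1.78 ± 0.11 (adjusted p = 4.4e-06). That probe set is marked as able to bind transcripts of other genes. A probe set of Mrpl11 without that mark read 9.51 and 9.42 in the tumour arrays and 9.07 and 8.93 in the normal arrays, a rise of 0.47 (adjusted p = 0.00823), and another rose by 1.01. Mrpl10, which anchors Mrpl12 to the ribosome, read 8.92 and 8.67 in the tumour arrays and 8.81 and 8.93 in the normal arrays. Its groups overlapped, and the difference of -0.08 had a 95% interval of -0.36 to 0.20. Mrpl54 was not called either (0.22). Mrpl53 is carried only by a probe set shared with another gene and was not analysed here.

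Mrpl52, a protein of the central protuberance without a bacterial counterpart, read 11.65 and 11.54 in the tumour arrays, against 10.14 and 10.25 in the normal arrays. It rose by 1.41 ± 0.08 (adjusted p = 1.9e-06), and its 2 other measured probe sets also passed, at 0.60 and 0.61. Other proteins of that region gave smaller differences or falls on their most intense probe sets. Mrpl40 read 9.06 and 9.14 in the tumour arrays and 9.50 and 9.54 in the normal arrays, and fell by 0.42 ± 0.10 (adjusted p = 0.011), and Mrpl46 fell by 0.44 ± 0.11. Leaving out 1 array gave adjusted p of 0.0526 to 0.0972 for Mrpl40, so that call was lost each time, and of 0.0361 to 0.106 for Mrpl46, which was lost in 3 of the 4 refits. Mrpl18 (-0.03) and Mrpl38 (-0.41) were not called. Mrpl48 was not called on its most intense probe set (0.16), but on another, of a class that may bind other genes, it read 9.12 and 9.14 in the tumour arrays and 8.00 and 7.96 in the normal arrays, a called rise of 1.15 (adjusted p = 5.53e-05). Over the 6 listed genes 1 rose (16.7%) and 2 fell (33.3%) by their most intense probe sets, with a median of -0.22. Among genes of like level 30% rose and 24.4% fell. Mrpl58, a peptidyl-tRNA hydrolase, and Gadd45gip1 also belong to that region in mammals but were not on the list, and gave -0.30 (called, and lost in each refit without 1 array) and 0.08 (not called).

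Around the exit tunnel, where the new protein leaves toward the inner membrane, 3 of 7 listed genes rose (42.9%) and 1 fell (14.3%), against 30% and 24.4% of genes of like level (median 0.33). Mrpl47, the counterpart of bacterial L29, read 9.859 and 9.971 in the tumour arrays, against 9.001 and 9.015 in the normal arrays, and rose by 0.91 ± 0.10 (adjusted p = 9.33e-05), while its other measured probe set gave -0.47 and did not pass. Mrpl44 rose by 0.80 ± 0.09, and by 0.79 on a second probe set, while 2 dimmer ones gave 0.30 and -0.24 and did not pass. Mrpl17 rose by 0.46, a call lost in 3 of the 4 refits without 1 array (adjusted p of 0.0312 to 0.0783). Mrpl24, the counterpart of bacterial L24, read 10.16 and 10.21 in the tumour arrays and 10.62 and 10.66 in the normal arrays, and fell by 0.46 ± 0.08 (adjusted p = 0.00198). Mrpl45 (0.33), Mrpl23 (0.20) and Mrpl22 (-0.11) did not pass.

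Of the other large-subunit rises, the largest were those of Mrpl41, a mitochondria-specific protein, and Mrpl15, the counterpart of bacterial L15. Mrpl41 read 11.28 and 11.20 in the tumour arrays, against 10.22 and 10.14 in the normal arrays, a difference of 1.06 ± 0.08 (adjusted p = 9.2e-06). Its other measured probe set gave 0.28 and did not pass. Mrpl15 read 10.78 and 10.76 in the tumour arrays and 9.97 and 9.81 in the normal arrays (0.88 ± 0.09, adjusted p = 5.91e-05), on a probe set marked as able to bind other genes. The other 5 measured probe sets of Mrpl15 lay between -0.23 and 0.52, and none passed, so the call rests on that probe set alone. Mrpl2, a protein near the peptidyl transferase centre, rose by 0.88 ± 0.10 and Mrpl28 by 0.76 ± 0.11, the second on all 3 of its probe sets.

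The large-subunit genes that fell were led by Mrpl14, whose protein lies at the face that meets the small subunit. Mrpl14 read 7.76 and 7.63 in the tumour arrays, against 8.73 and 8.80 in the normal arrays, and fell by 1.07 ± 0.12 (adjusted p = 0.000177), the only family member to fall by more than 2-fold. Mrpl49, a mitochondria-specific protein, read 7.80 and 7.46 in the tumour arrays and 8.52 and 8.31 in the normal arrays. It fell by 0.79 ± 0.16 (adjusted p = 0.00474), with -0.76 on its second probe set, and without tumour replicate 2 its adjusted p was 0.0549. Mrpl3, a protein near the peptidyl transferase centre, read 8.81 and 8.83 in the tumour arrays and 9.71 and 9.45 in the normal arrays (-0.76 ± 0.11, adjusted p = 0.000897). A second probe set of Mrpl3 also passed, at -0.79. Mrpl42, another mitochondria-specific protein, read 9.60 and 9.39 in the tumour arrays, against 10.27 and 10.13 in the normal arrays, and fell by 0.70 ± 0.10 (adjusted p = 0.000772). The other 7 falls, of Mrpl24, Mrpl32, Mrpl34, Mrpl40, Mrpl43, Mrpl46 and Mrpl58, lay between -0.66 and -0.30. Of these, Mrpl32, Mrpl40 and Mrpl58 were called in no refit without 1 array, with adjusted p of 0.0777 to 0.181 for Mrpl32 and 0.0508 to 0.239 for Mrpl58, and Mrpl43 was not called without tumour replicate 2 (adjusted p = 0.0656). A second, dimmer probe set of Mrpl34 gave 1.43 and did not pass (adjusted p = 0.0843), and Mrpl34 was not called with either mean over its probe sets.

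In the small subunit, the head, which swivels over the transfer RNAs during translocation, held calls in both directions. Of 5 listed head proteins, all with bacterial counterparts, 4 rose and 1 fell, with a median of 0.80, against 30% and 24.4% of genes of like level. Mrps31 (0.33), Mrps33 (-0.04), Mrps35 (0.15) and Dap3 (-0.22), which lie in the head in mammals but were not on the list, were not called. Mrps10, the counterpart of bacterial S10, read 8.73 and 8.98 in the tumour arrays, against 7.68 and 7.42 in the normal arrays. It rose by 1.31 ± 0.15 (adjusted p = 0.000137), a 2.47-fold difference. A much dimmer probe set of Mrps10, below background on 1 tumour array, gave -1.32 and did not pass (adjusted p = 0.181), and the mean over both gave -0.01. Mrps9, which reaches toward the transfer RNA in the P site, read 9.92 and 9.84 in the tumour arrays and 8.98 and 8.60 in the normal arrays (1.09 ± 0.13, adjusted p = 0.000222), and 2 more of its probe sets passed, at 0.74 and 1.12.

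Mrps24, the counterpart of bacterial S3 at the entry of the messenger RNA, read 10.10 and 9.98 in the tumour arrays and 9.13 and 9.35 in the normal arrays. It rose by 0.80 ± 0.11 (adjusted p = 0.000429), though its second probe set gave 0.08, and both are of a class that may bind other transcripts. Mrps7 read 8.90 and 8.68 in the tumour arrays and 8.27 and 7.98 in the normal arrays (0.66 ± 0.14, adjusted p = 0.00741). Its adjusted p was 0.0733 with normal replicate 2 left out and 0.0941 with tumour replicate 1 left out (limma). Mrps14, the head protein that fell, read 10.998 and 10.871 in the tumour arrays, against 11.689 and 11.568 in the normal arrays. It fell by 0.69 ± 0.08 (adjusted p = 0.000131), and its 2 other probe sets were called lower too, at -0.62 and -2.01, the second above background on 1 tumour array only.

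Outside the head, Mrps15, a small-subunit protein whose bacterial counterpart binds ribosomal RNA early in assembly, read 10.03 and 10.01 in the tumour arrays and 8.93 and 9.01 in the normal arrays. It rose by 1.05 ± 0.09 (adjusted p = 3.17e-05), with 1.03 on a second probe set. Mrps2, Mrps25, Mrps27 and Mrps28 rose by 0.64, 0.45, 0.61 and 0.53. Mrps25 and Mrps27 were called in no refit without 1 array (adjusted p of 0.0576 to 0.114 and 0.0754 to 0.127). The call of Mrps28 was lost without either tumour array (adjusted p = 0.0552 and 0.0529), and a dimmer probe set of Mrps2 gave -0.72 and did not pass. The falls were those of Mrps11, Mrps21, Mrps16, Mrps26, Mrps36 and Mrps14. Mrps11, a protein of the platform, read 8.10 and 7.82 in the tumour arrays, against 9.19 and 8.65 in the normal arrays, and fell by 0.96 ± 0.18 (adjusted p = 0.00352). Without tumour replicate 2 its adjusted p was 0.0677. Mrps21, the counterpart of bacterial S21, read 9.09 and 8.99 in the tumour arrays and 9.91 and 9.95 in the normal arrays, and fell by 0.89 ± 0.09 (adjusted p = 9.73e-05).

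Some genes carry an Mrps name without sitting in the small subunit. Mrps18a, Mrps18b and Mrps18c are paralogs related to bacterial S18, and in mammalian structures the first lies in the large subunit and the other two in the small. Mrps18b read 8.47 and 8.25 in the tumour arrays, against 7.73 and 7.57 in the normal arrays, and rose by 0.71 ± 0.14 (adjusted p = 0.00485). Leaving out normal replicate 2 gave Mrps18b an adjusted p of 0.0507, and leaving out tumour replicate 1 gave 0.0620. Mrps18a read 8.97 and 8.84 in the tumour arrays and 9.09 and 8.99 in the normal arrays, and its difference of -0.13 (95% interval -0.38 to 0.11) was not called. Mrps18c read 10.64 and 10.69 in the tumour arrays, against 10.48 and 10.52 in the normal arrays, a difference of 0.17 that did not pass either (95% interval 0.00 to 0.34, adjusted p = 0.163). The 3 paralogs thus gave 1 rise and 2 differences that were not called, and the differences between paralogs were not tested.

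Mrps30, which also lies in the large subunit in mammalian structures, read 9.25 and 9.37 in the tumour arrays and 9.19 and 8.80 in the normal arrays. Its difference of 0.31 ± 0.14 was not called (adjusted p = 0.146), though it passed without normal replicate 1, the higher of the normal arrays (adjusted p = 0.0382). Mrps36 belongs to the 2-oxoglutarate dehydrogenase complex rather than to the ribosome. It read 9.01 and 9.21 in the tumour arrays, against 9.60 and 9.48 in the normal arrays, and fell by 0.43 ± 0.11 (adjusted p = 0.0179). The call was lost when normal replicate 1, normal replicate 2 or tumour replicate 1 was left out, with limma adjusted p of 0.141, 0.0553 and 0.158.

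The 34 genes that were not called had log2 differences between -0.41 and 0.33. For 25 of them the 95% interval lay within 0.5 of 0 on both sides, on the most intense probe set and with the prior that follows the level. Intervals with the default prior are not given. Another probe set was called for Mrpl1 (1.18), Mrpl48 (1.15), Mrpl21 (-1.47), Mrpl57 (-1.28) and Mrps23 (-0.94). The intervals thus do not show that these genes were unchanged. Grouped by origin, 17 of 44 genes listed with a bacterial counterpart rose (38.6%) and 9 fell (20.5%, median 0.11). Of 30 listed without one, 8 rose (26.7%) and 7 fell (23.3%, median 0.12). Among genes of like level 30% rose and 24.4% fell, and a difference by origin was not tested. Mrps18a and Mrps18b, which are related to bacterial S18 beside Mrps18c, were listed without a counterpart, and Mrpl55 and Mrps36 were put in neither group.

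Probe sets of the same gene often disagreed in size. Of all 156 probe sets, 39 rose (25%) and 26 fell (16.7%), where 11.3% and 11.5% of all 45037 did. For 36 genes at least 2 probe sets lay above background on both arrays of a group, and the median spread between the lowest and highest log2 difference of a gene was 0.93. At least 2 probe sets were called the same way, with none called the other way, for 10 genes, 7 higher (Mrpl11, Mrpl13, Mrpl28, Mrpl44, Mrpl52, Mrps9 and Mrps15) and 3 lower (Mrpl3, Mrpl49 and Mrps14). For 17 genes the probe sets lay on both sides of 0. With the mean of all probe sets of a gene 14 genes rose and 13 fell, where 10.3% and 9.7% of all named genes did, and 23 of the 42 calls were shared. With the mean of those above background, a setting added after the data were seen, 21 rose and 18 fell, where 25.2% and 22.6% of 11081 named genes did, and 33 calls were shared.

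For 2 genes the probe sets were called in opposite directions. Mrpl39, a mitochondria-specific protein, read 11.19 and 11.33 in the tumour arrays and 10.82 and 10.94 in the normal arrays on its most intense probe set, a rise of 0.37 ± 0.08 (adjusted p = 0.00743). On the other it read 9.03 and 9.03 in the tumour arrays, against 9.51 and 9.56 in the normal arrays, a fall of 0.51 (adjusted p = 0.00351). The rise on the first was not called once normal replicate 1 (adjusted p = 0.0682) or tumour replicate 2 (adjusted p = 0.120) was left out. Mrpl9, the counterpart of bacterial L9, read 9.84 and 9.94 in the tumour arrays and 9.05 and 9.25 in the normal arrays on its most intense probe set, which rose by 0.74 ± 0.10 (adjusted p = 0.000587). Its other probe sets gave 0.04, not called, and -0.64 (adjusted p = 0.0118). Another probe set of Mrpl9 was the most intense without tumour replicate 1, where the difference was -0.02, and without tumour replicate 2, where it was 0.10. No direction can be given for these 2 genes, though the counts of genes called higher include both, by their most intense probe sets. Which part of the transcript each probe set covers was not analysed here, and the higher 3' to 5' ratio of the tumour arrays stands beside these differences.

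**Figure D3:**
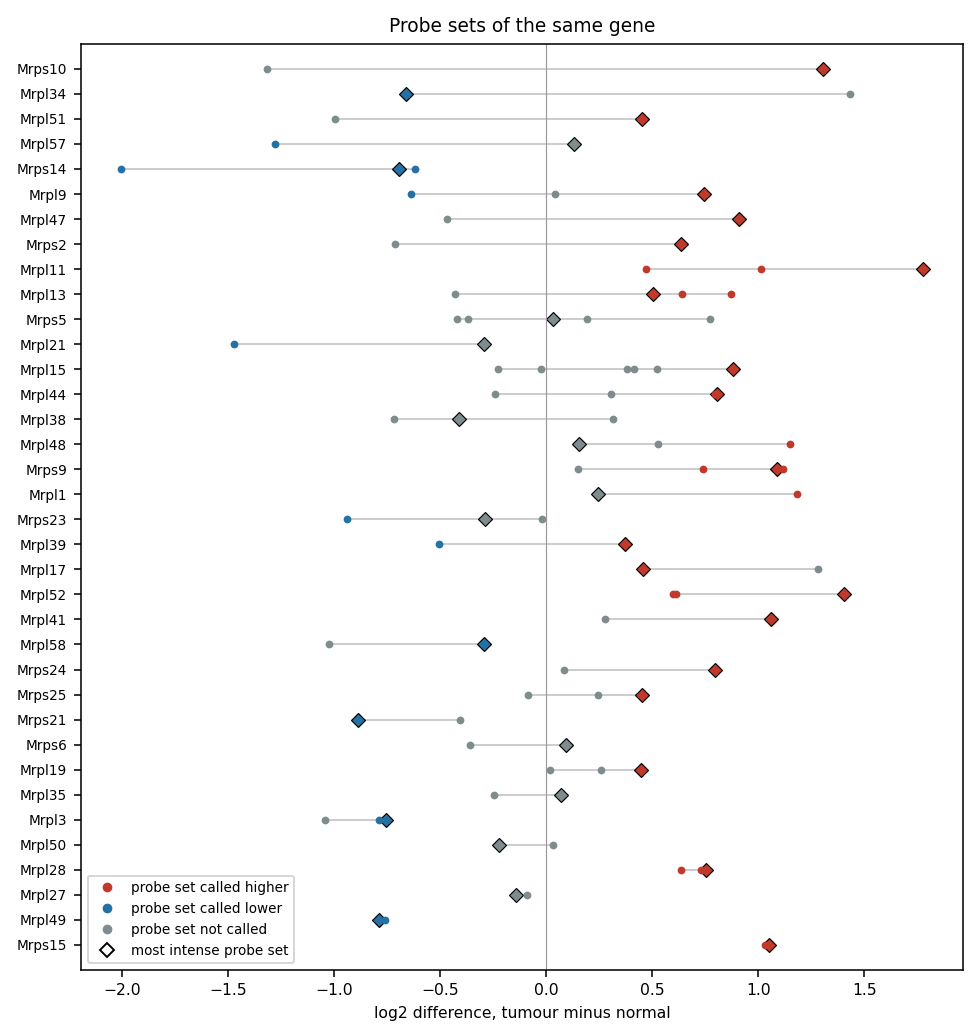
Log2 difference of tumour minus normal arrays (x axis) for each probe set above background on both arrays of a group, for the 36 genes with at least 2 such probe sets (rows, widest spread on top). Diamonds are the most intense probe set of a gene and circles the others, coloured by call; Mrps15, Mrpl49 and Mrpl28 have nearly equal values, whereas Mrpl9 and Mrpl39 hold calls in both directions.

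Other genes of mitochondrial gene expression were read in the same way. Of 4 measured mitoribosome proteins without an Mrp symbol, 0 rose and 1 fell, where 30% and 24.4% of genes of like level did. That member, Chchd1, read 10.05 and 9.93 in the tumour arrays and 10.41 and 10.41 in the normal arrays (-0.42, adjusted p = 0.00478), while Dap3 (-0.22), Ptcd3 (0.17) and Gadd45gip1 (0.08) were not called. Among 13 translation factors and messenger RNA binding proteins, 5 rose (38.5%) and 1 fell (7.69%), against 30% and 24.4% of genes of like level (median 0.39). Lrpprc and Slirp, which together stabilise mitochondrial messenger RNAs, rose by 0.73 and 0.69 (adjusted p = 0.00285 and 0.00052). The elongation factors went apart: Tsfm, the exchange factor, rose by 0.69 (adjusted p = 0.00273), and Tufm, the carrier of aminoacyl transfer RNA on which it acts, fell by 0.51 (adjusted p = 0.0112). The probe set of Tufm is marked as able to bind other genes.

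Of 26 genes of mitoribosome assembly and ribosomal RNA modification, 8 rose (30.8%) and 1 fell (3.85%), where 30% and 24.4% of genes of like level did (median 0.33). C1qbp, an RNA-binding chaperone of the matrix, read 13.11 and 13.02 in the tumour arrays, against 11.36 and 11.20 in the normal arrays (1.79, adjusted p = 2.92e-07). Its probe set is marked as able to bind other genes. Fastkd2, a binding protein of the large-subunit ribosomal RNA, rose by 1.56, and Gtpbp10, a GTPase of large-subunit assembly, by 2.76. Gtpbp10 read 7.42 and 7.76 in the tumour arrays, against 4.15, near background, and 5.51 in the normal arrays. Mtg2, another such GTPase, read 4.79 and 5.10 in the tumour arrays and 7.70 and 7.80 in the normal arrays, and fell by 2.81 (adjusted p = 1.57e-05). The probe set of Mtg2 is of a class that may bind other transcripts. Among 12 genes of mitochondrial DNA copying, transcription and RNA handling, 5 rose (41.7%) and 3 fell (25%), beside 30% and 24.4% of genes of like level (median 0.38). The helicase Twnk rose by 1.13 and the single-strand binding protein Ssbp1 by 0.76, whereas the polymerase subunit Polg fell by 0.91 and the RNA helicase Supv3l1 by 0.86.

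Of 9 nuclear regulators 3 rose (33.3%) and 2 fell (22.2%), near the 30% and 24.4% of genes of like level. Myc, a driver of cell growth, rose by 2.78 (adjusted p = 4.38e-07), and the coactivators Ppargc1b and Pprc1 rose by 1.46 and 1.44. Nrf1, a regulator of many nuclear genes for mitochondria, read 6.63 and 6.77 in the tumour arrays, against 8.28 and 8.20 in the normal arrays, and fell by 1.54 (adjusted p = 6.33e-05). Gabpb1, a subunit of the ETS factor GABP, fell by 0.47 (adjusted p = 0.0237), while Gabpa (-0.37) and Yy1 (-0.06) were not called.

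Families that share a function were set beside the mitoribosome. Of 81 oxidative phosphorylation subunits 23 rose (28.4%) and 22 fell (27.2%), with a median of -0.04, and the middle 50% of the genes lay between -0.38 and 0.31. Of the 81, 77 were above background on all 4 arrays. Of 44 cytosolic ribosomal proteins 11 rose (25%) and 2 fell (4.55%), with a median of 0.08 and the middle 50% between -0.01 and 0.32. By the same rule 30% of genes of like level rose and 24.4% fell, and 16.3% and 11.7% of all named genes. For the mitoribosome the middle 50% lay between -0.29 and 0.51. The median absolute log2 difference was 0.43 for the mitoribosome, 0.34 for oxidative phosphorylation and 0.12 for cytosolic ribosomal proteins. Most cytosolic ribosomal proteins were more intense than any mitoribosome gene: Rps4x averaged 13.75 (tumour) and 13.71 (normal), beside 11.60 and 10.19 for Mrpl52. Whether this level made their differences and called shares smaller was not tested. The 44 are only those with a probe set of a single symbol, and were chosen by symbol, which takes in Rpl7l1 and Rpl22l1. The largest difference among them, 2.28 for Rps16, came from a probe set below background on all 4 arrays. The differences between these families were not tested.

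**Figure D4:**
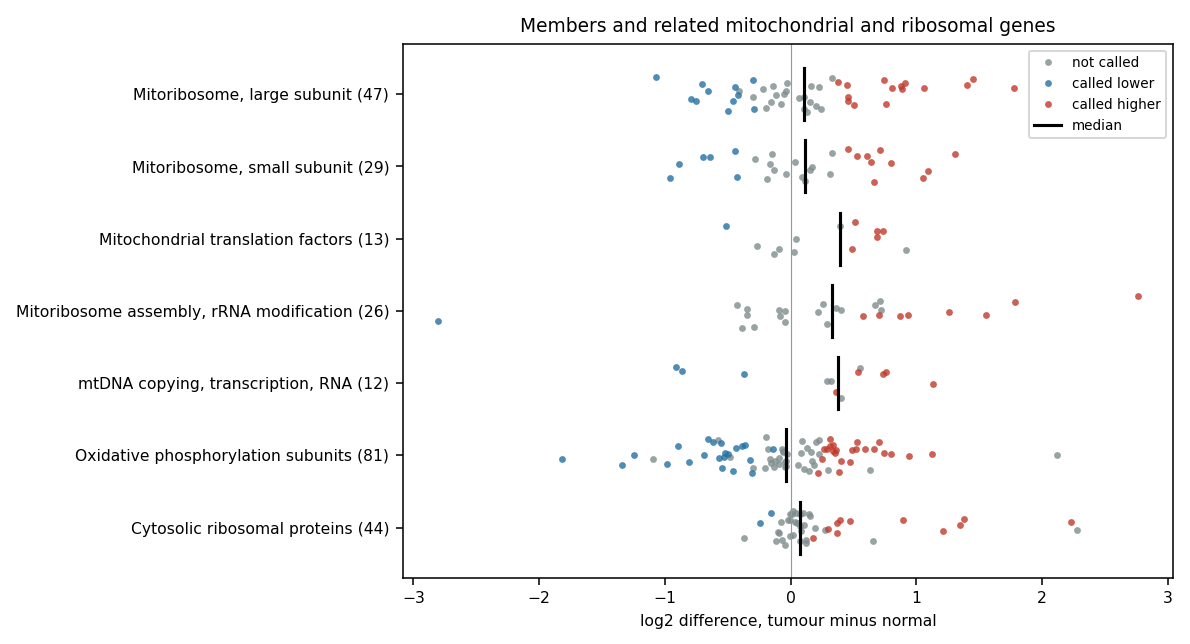
Log2 difference of tumour minus normal arrays (x axis) for each gene of the 2 mitoribosome subunits and of related groups (rows, number of genes in brackets). Points are genes coloured by call, spread at random in height, and black bars are medians. Both subunits spread to either side of 0 with medians of 0.11 and 0.12. Most cytosolic ribosomal proteins lie closer to 0, and most of them are more intense than the mitoribosome genes.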

How the data were processed

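Expression was measured in 2 tumour and 2 normal DP samples, 1 array each. The deposited values are linear intensities per probe set, for which the submitters' processing notes name RMA, with no version, background step or probe definition. After log2 some values were negative (-1.84 for a dim Mrpl42 probe set in tumour replicate 2). How the values were brought to this scale is not given. The intensities had nearly equal distributions on all arrays, so the bulk of genes is set equal by the authors' normalization and a shift of most genes would not show. Arrays have no read depth, and their number limits the precision.

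Log2 was taken with no offset and no filter, and 64 control probe sets were left out. A linear model was fitted to the other 45037 with limma 3.58.1 (R 4.3.3), with a variance prior that follows the level and is robust to outliers, and p-values were adjusted by Benjamini-Hochberg over all of them at 0.05. That prior was used because the replicate spread depends strongly on level. A gene is represented by its most intense probe set (highest average of all 4 arrays), and 932 probe sets with several symbols and 9160 with none named no gene. A probe set counts as above background where it exceeds the level of 27 background control probe sets. In simulated data the script recovered 1.49%, 26.9% and 80.3% of log2 changes of 0.5, 1 and 2, with 4 false calls. Far fewer probe sets were changed there than were called here, so these rates may not carry over to the genes. The members, gene lists, tests and promoter motifs were chosen with earlier results of these data known. Values on every array are given for the genes of each subunit with the largest rises and falls, those with opposite probe sets, the stalk proteins, the Mrps18 paralogs, Mrps30 and Mrps36, and for further genes chosen after their values were seen (Mrpl24 and Mrpl40 among the members). Of each other list, called genes with large differences are named. Alternatives were the prior, the normalization, filters on dim probe sets, an offset, the choice of probe set, the threshold, a replicate block and leaving out each array. Mrpl30, Mrpl53 and 1 Mrps34 probe set share probe sets with other genes and were left out.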

Additional observations from a re-analysis of the deposited data

How the results depend on the processing

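Main counts were 15 higher and 11 lower in the large subunit, 10 and 6 in the small subunit, and 39 and 26 over probe sets, with medians of 0.105 (large) and 0.116 (small). With limma's default prior all 6 counts were 0, and fitted over 1 probe set per gene (added after the data were seen) they were 3 and 0 (large) and 0 and 0 (small). Scaled to the hybridization controls, they were 6 and 30 (large), 3 and 17 (small) and 11 and 71 (probe sets). The medians were then -0.496 (large) and -0.485 (small). Every value shifts by 0.601 by construction, and 35 of the 42 called genes kept their sign. Mrpl39 (-0.228) and the uncalled Mrps18c (-0.434) and Mrps30 (-0.288) were among the genes that reversed. Averaging all probe sets of a gene, 8 large-subunit and 6 small-subunit genes were higher and the medians were -0.057 and -0.007. With the mean of those above background (added after the data were seen) the medians were -0.034 and -0.007. Under each mean 37 of the 42 called genes kept their sign, and Mrps10 (-0.007) and Mrpl39 (-0.067) were among those that reversed. Without the probe set classes that may bind several transcripts, 9 of 42 large-subunit genes were higher, with a median of -0.006, and Mrpl39 was -0.508. At a threshold of 0.01, 7 large-subunit genes and 15 probe sets were lower. Leaving out 1 array at a time gave 11 to 13 (large, higher), 5 to 8 (large, lower), 5 to 9 (small, higher), 4 to 5 (small, lower), 26 to 34 (probe sets, higher) and 14 to 20 (probe sets, lower), with medians of 0.006 to 0.15 (large) and 0.079 to 0.149 (small). The calls over all named genes also fell in number, in both directions, with each omission. Over the same omissions Mrpl9 ranged from -0.023 (tumour replicate 1) to 0.841, and Mrpl10 from -0.207 to 0.05 (tumour replicate 2). Beyond what these settings' construction shows (fewer arrays, a stricter threshold, a constant shift), the cause was not tested. The 97 other settings of these 8 results kept direction and stayed within 1.5 times the main count or within the replicate spread.

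The replicate numbers do not establish pairs, since there are 2 pairs and the labels tie them to no shared animal or day, and same-numbered samples' deviations correlated at 0.25 over 10772 probe sets. With the replicate block 28 genes were higher (36.8%) and 19 lower (25%). Of all named genes 19.3% and 14.1% were, against 16.3% and 11.7% without the block. All 42 calls were shared, and Mrps30 passed (0.313, adjusted p = 0.0196, limma).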
